A study of Mus musculus with 8 samples.

Results

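Major histocompatibility complex (MHC) class II genes and their master regulator Ciita were examined in splenic hemophagocytes, macrophages that have engulfed blood cells, and in resting splenic macrophages. The set held 10 genes chosen by name: H2-Aa, H2-Ab1, H2-Eb1, Cd74, H2-DMa, H2-DMb1, H2-DMb2, H2-Oa, H2-Ob and Ciita. All 10 had a probe set, and since the platform annotation gives H2-DMb1 and H2-DMb2 the same one, the set was read by 9 of the table's 35556 probe sets. All animals were wild-type male C57Bl/6j mice aged 8 weeks. The hemophagocyte group (4 arrays, numbered 2, 3, 5 and 6) came from mice given 4 intraperitoneal doses on alternate days of 37.5 ug CpG1826, a DNA oligonucleotide sensed by Toll-like receptor 9, with 200 ug of clone 1B1.3A, a blocking antibody against the IL-10 receptor. The resting group (4 arrays, numbered 3, 4, 5 and 6) came from mice given 200 uL of PBS on the same schedule. Cells were cut from splenic touch preparations by laser capture, 20 per mouse, and pooled. The labels give neither the number of mice behind an array nor the way in which cells were recognised. Hemophagocytes were arrayed only from treated mice and resting macrophages only from PBS mice, so engulfment and treatment cannot be told apart.

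Class II molecules are pairs of an alpha and a beta chain that show peptides from engulfed material to helper T cells. The invariant chain, Cd74, guards the groove until proteases cut it away. The DM pair (H2-DMa with H2-DMb1 or H2-DMb2) then removes the last fragment and helps peptides bind, and the DO pair (H2-Oa, H2-Ob) restrains DM. Ciita does not bind DNA itself. It joins factors that sit on the X boxes and Y box of class II promoters, among them the RFX complex, CREB and NF-Y. Macrophages raise Ciita mainly in response to interferon gamma, while B cells and dendritic cells carry class II constantly.

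Promoter elements through which Ciita can act on class II genes are shown here for those genes in which TGATTGG was found. RefSeq windows of build GRCm38.p6, each with 250 bases before and 50 after a gene's start, were at hand for 7 of the 10 genes, H2-Aa, H2-Eb1, H2-DMa, H2-DMb1, H2-DMb2, H2-Oa and H2-Ob. H2-Ab1, Cd74 and Ciita had no window. The capitals at the right of each line mark TGATTGG, which holds the reverse complement of the Y box core CCAAT. Those at the left mark GNAAC, part of the X box. Both motifs were written down after these promoters had been seen. All lines read 5′ to 3′ in the direction of the gene and end before its start. They come from chr17:34287855-34287916 (minus strand) for H2-Aa, and from the plus strand at chr17:34305764-34305824 for H2-Eb1, chr17:34153085-34153146 for H2-DMb1, chr17:34145114-34145175 for H2-DMb2, chr17:34092291-34092352 for H2-Oa and chr17:34238806-34238864 for H2-Ob.
H2-Aa: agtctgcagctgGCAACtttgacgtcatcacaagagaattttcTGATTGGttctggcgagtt
H2-Eb1: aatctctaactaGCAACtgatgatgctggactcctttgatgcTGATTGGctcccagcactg
H2-DMb1: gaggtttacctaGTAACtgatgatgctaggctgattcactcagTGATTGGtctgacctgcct
H2-DMb2: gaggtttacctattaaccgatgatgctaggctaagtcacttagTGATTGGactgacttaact
H2-Oa: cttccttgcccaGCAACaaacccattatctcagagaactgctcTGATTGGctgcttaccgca
H2-Ob: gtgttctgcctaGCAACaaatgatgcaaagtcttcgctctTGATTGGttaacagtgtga

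TGATTGG began 45 to 92 bases before the start in these 6 genes and lay in neither of the 2 windows of H2-DMa. In 5 of them it followed GNAAC at a distance of 23 to 26 bases. Over all 32851 promoter windows, TGATTGG occurred on either strand in 7.82%, and the pair, with GNAAC ahead of TGATTGG by 10 to 40 bases on the same strand, in 0.828%. The stretches of H2-DMb1 and H2-DMb2 were identical at 53 of 62 bases. These matches describe letters only and show no binding on these arrays.

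No class II gene differed between hemophagocytes and resting macrophages past the threshold. Of 9 probe sets, limma called 0 higher and 0 lower at an adjusted p under 0.05, where 0.0193% of the 20736 rows tested were called in either direction. At an unadjusted p under 0.05, 0 were higher and 1, H2-Oa, was lower, which is to be read against 5.13% of all rows lower by that measure (1063 lower and 325 higher, a split of 576 to 640 with cyclic loess, 728 to 520 with arrays centred on their medians and 793 to 512 with quantile normalization). The groups did not overlap in 0 of the 9 probe sets, against 3.8% of all rows. Changes, all given as hemophagocyte minus resting macrophage, ran from -0.28 for H2-Oa to 0.05 for H2-Ob on the log2 scale. Their median was -0.09, beside -0.04 over all rows. Of the 9 changes 8 were below 0, as were 64.0% of all rows and 91.0% of olfactory and vomeronasal receptor rows. H2-Eb1 turned positive after each of those normalizations. Adjusted p ran from 0.74 to 0.99.

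Whether transcripts of the 10 genes were detected at all cannot be told from these values. The 1210 probe sets of olfactory and vomeronasal receptors, genes of sensory neurons, were taken as a measure of array background. Their mean was 5.74 to 6.15 on the 8 arrays, and their 95th percentile was 7.42 to 7.80. Not one of the 72 values of the set (9 probe sets on 8 arrays) exceeded the 95th percentile of its own array, whereas the class II gene H2-Eb2, outside the set, did so on all 8. Among all rows tested, 7.47% exceeded the 95th percentile on at least 1 array and 1.77% on all 8. Of the receptor rows tested, 7.87% and 2.76% did so. Passing this percentile, as H2-Eb2 did, therefore does not show that a gene was detected. A probe set for a gene known to be silent in this strain also gave values within the range of the set. C57BL/6 mice carry a deletion at the promoter of H2-Ea, the alpha chain that would pair with H2-Eb1, and do not transcribe it. H2-Ea nevertheless read 5.90 to 6.31 in hemophagocytes and 6.16 to 6.49 in resting macrophages. Probe sets differ in their affinity, so these values give no order of abundance among genes.

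**Figure D1:**
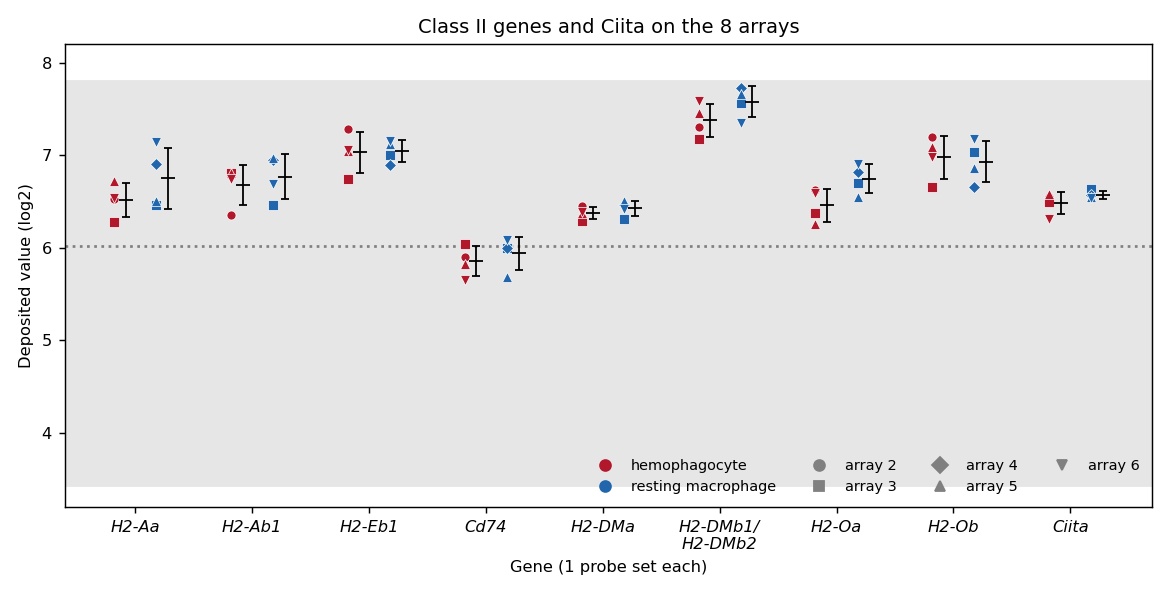
Deposited log2 values of the 9 class II probe sets on each of the 8 arrays; marker shapes give the array number, and the bars beside the points give each group's mean ± SD (n = 4). The dotted line is the average of the 8 array means of the olfactory and vomeronasal receptor probe sets, and the grey band runs from the lowest 5th to the highest 95th percentile of these probe sets over the 8 arrays. All 72 values lie inside the band and the groups overlap in every gene.

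None of the classical chains, the kind that forms the peptide groove, differed between the groups past the threshold. H2-Aa, the alpha chain of I-A (probe set 10450154), read 6.52, 6.28, 6.72 and 6.54 on hemophagocytes 2, 3, 5 and 6, and 6.46, 6.90, 6.50 and 7.14 on resting macrophages 3, 4, 5 and 6. Resting macrophages 4 and 6 stood above every hemophagocyte, while resting macrophages 3 and 5 lay among them. The means were 6.52 ± 0.18 and 6.75 ± 0.33 (log2, SD, n = 4 each). The log2 change was -0.23 (SE 0.15, 95% interval -0.58 to 0.11, limma adjusted p = 0.76), a ratio of 0.850 with an interval of 0.671 to 1.08. With single arrays left out the change was -0.33 to -0.11, smallest in size without resting macrophage 6, and with array background as a covariate it was -0.03. Of the classical chains this gene had the widest interval.

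H2-Ab1, the beta chain of I-A and partner of H2-Aa, read 6.36, 6.81, 6.81 and 6.75 on hemophagocytes 2, 3, 5 and 6, and 6.47, 6.95, 6.97 and 6.69 on resting macrophages 3, 4, 5 and 6. Hemophagocyte 2 and resting macrophage 3 were the low arrays of their groups. The log2 change was -0.09 (95% interval -0.39 to 0.21, limma adjusted p = 0.89), and it became 0.02 without hemophagocyte 2. H2-Eb1, the beta chain of I-E, read 7.28, 6.74, 7.05 and 7.06 on hemophagocytes and 7.00, 6.89, 7.12 and 7.15 on resting macrophages, in the same array order. Both the highest and the lowest value belonged to hemophagocytes, arrays 2 and 3. Its log2 change of -0.01 was the smallest of the set in size (95% interval -0.26 to 0.24, limma adjusted p = 0.99). Without hemophagocyte 3 it was 0.09, so its sign was not stable.

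Cd74, the invariant chain, read 5.90, 6.04, 5.83 and 5.66 on hemophagocytes 2, 3, 5 and 6, and 6.00, 6.00, 5.68 and 6.08 on resting macrophages 3, 4, 5 and 6. These values lay above the mean of the receptor probe sets on 2 of 8 arrays. The other 8 class II probe sets were above it on all 8. The group means of Cd74 were 5.86 ± 0.16 and 5.94 ± 0.18, and the log2 change was -0.09 (95% interval -0.32 to 0.15, limma adjusted p = 0.86). It was -0.02 without hemophagocyte 6 and -0.17 without resting macrophage 5. Groups overlapped almost fully, with hemophagocyte 6 and resting macrophage 5 lowest.

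Among the editors of peptide loading, H2-DMa, the alpha chain of DM, varied little. It read 6.45, 6.29, 6.38 and 6.39 on hemophagocytes 2, 3, 5 and 6, and 6.31, 6.47, 6.50 and 6.42 on resting macrophages 3, 4, 5 and 6. Its log2 change was -0.05 and its interval the narrowest of the set, -0.21 to 0.11 (limma adjusted p = 0.88). The probe set that names both H2-DMb2 and H2-DMb1, alternative beta chains of DM, cannot separate the pair. It read 7.30, 7.17, 7.45 and 7.58 on hemophagocytes and 7.56, 7.73, 7.66 and 7.35 on resting macrophages. Hemophagocytes 2 and 3 were below all resting arrays, hemophagocytes 5 and 6 were not. The log2 change was -0.20 (95% interval -0.44 to 0.04, limma adjusted p = 0.74), and -0.13 without hemophagocyte 3.

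The DO chains showed the largest negative and the only positive change of the set. H2-Oa, the alpha chain (probe set 10444223), read 6.62, 6.38, 6.25 and 6.59 on hemophagocytes 2, 3, 5 and 6, and 6.70, 6.82, 6.55 and 6.91 on resting macrophages 3, 4, 5 and 6. Resting macrophage 5 lay below hemophagocytes 2 and 6, and the other resting arrays lay above all hemophagocytes. Means were 6.46 ± 0.18 and 6.74 ± 0.16. The log2 change was -0.28 (SE 0.11, 95% interval -0.52 to -0.05), a ratio of 0.821. With limma's unadjusted p = 0.023 and adjusted p = 0.74 it did not pass, and adjusted p was 0.59 to 0.97 over 21 alternative settings. Without hemophagocytes 3 and 5 the change was -0.14. H2-Ob, the beta chain and partner of H2-Oa, read 7.19, 6.65, 7.09 and 6.98 on hemophagocytes and 7.03, 6.65, 6.87 and 7.17 on resting macrophages. Each group had 1 low array, hemophagocyte 3 and resting macrophage 4. The log2 change was 0.05 (95% interval -0.25 to 0.35, limma adjusted p = 0.95), and it was -0.04 without resting macrophage 4 and -0.02 without hemophagocyte 2.

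Ciita, the coactivator (probe set 10433507), read 6.55, 6.49, 6.59 and 6.32 on hemophagocytes 2, 3, 5 and 6, and 6.64, 6.57, 6.55 and 6.54 on resting macrophages 3, 4, 5 and 6. The resting arrays stood close together, and hemophagocyte 6 was the lowest array. Means were 6.49 ± 0.12 and 6.57 ± 0.04, with a log2 change of -0.09 (SE 0.08, 95% interval -0.26 to 0.08, limma adjusted p = 0.80). Expressed as a ratio, the interval ran from 0.838 to 1.06. Without hemophagocyte 6 the log2 change was -0.03.

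Over the 9 probe sets the 95% half-widths of the change were 0.16 to 0.34 log2 units. The widest bounds were reached by H2-Aa below, at a ratio of 0.671, and by H2-Ob above, at a ratio of 1.27. These bounds describe signal on the array and not transcripts per cell. In pooled cells, fewer cells of a type and less RNA per cell cannot be told apart. The median over the 9 class II values was 6.49 to 6.72 on hemophagocyte arrays and 6.55 to 6.91 on resting arrays, and these ranges overlapped. The mean over the same 9 values was 6.54 to 6.69 and 6.69 to 6.83, ranges that did not overlap, though the highest hemophagocyte (6.6857) and the lowest resting array (6.6863) almost met. On the same arrays the receptor probe sets averaged 5.95 ± 0.15 and 6.10 ± 0.08, a difference of -0.15. The part of array background in the class II changes was tried as a covariate. With it the changes ran from -0.27 for H2-Oa and -0.22 for Cd74 to 0.16 for H2-Ob, and adjusted p was 0.97 or higher.

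Class II genes differed in how far they varied together across the arrays. Over the 36 pairs of the 9 probe sets, Pearson's r across the 8 arrays had a median of 0.14 and ran from -0.67 to 0.85, with 26 pairs above 0. H2-Eb1 and H2-Ob had the highest r, followed by H2-Aa with H2-Oa at 0.60 and H2-Eb1 with H2-DMa at 0.57. With the receptor mean of the array, r was 0.75 for H2-DMb1/H2-DMb2, 0.74 for H2-DMa, 0.69 for H2-Aa and -0.33 for Cd74. The arrays share their preparation and scaling, and these r values are descriptions of 8 points. The rows most like the mean of H2-Aa, H2-Ab1, H2-Eb1 and Cd74 were Znrd1as (r = 0.97), Smad5 (0.97), the olfactory receptor Olfr17 (0.97), Gemin5 (0.96) and Grp (0.96), and 44 rows in all had r above 0.9. How many rows would reach this by chance was not worked out. The averaged genes did not all vary together. H2-Ab1 with H2-Eb1 had r = -0.48, H2-Eb1 with Cd74 -0.34 and H2-Ab1 with Cd74 -0.26, while H2-Aa had 0.17 to 0.30 with each of them.

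**Figure D2:**
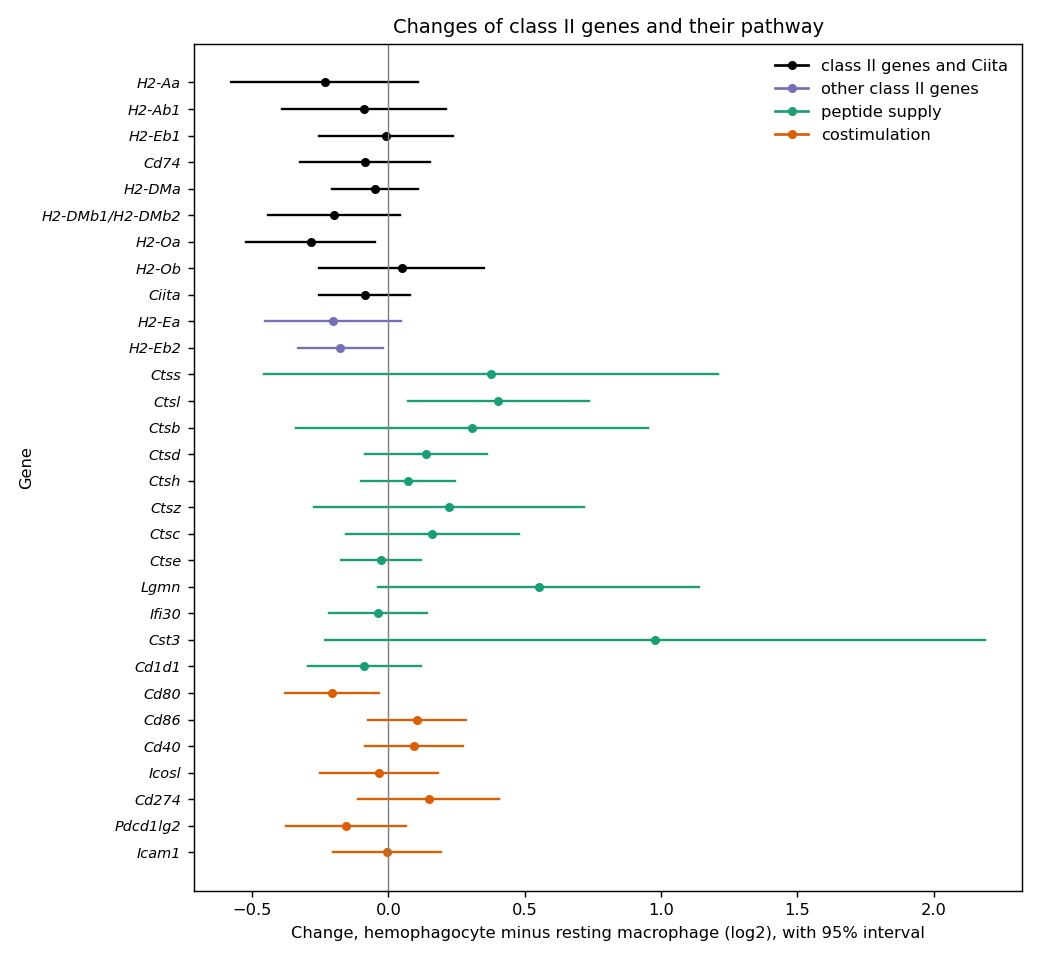
Log2 change, hemophagocyte minus resting macrophage, with its 95% interval from limma (n = 4 arrays a group), for the class II probe sets, 2 further class II genes, the genes of peptide supply and the costimulators. Among the 9 probe sets of the set (black) only the interval of H2-Oa leaves out 0, as does that of H2-Eb2 among the other class II genes; the intervals of Cst3 and Ctss, at -0.23 to 2.19 and -0.46 to 1.21, are wider than any of these.

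Other genes of the pathway did not pass either. Of 57 measured genes in 5 lists, limma called 0 higher and 0 lower, and at an unadjusted p under 0.05 there were 2 higher and 3 lower. Over all 20736 rows, 325 were higher and 1063 (5.13%) lower by that measure. The groups did not overlap for 2 of the 57 genes, H2-Eb2 and Cd80, against 3.8% of all rows. The 2 further class II genes both had lower values. H2-Eb2, a beta chain gene beside H2-Eb1, was above the receptor probe sets' 95th percentile on all 8 arrays, at 7.70 to 7.82 in hemophagocytes and 7.85 to 8.06 in resting macrophages. Its groups did not overlap, yet with a log2 change of -0.18 (95% interval -0.33 to -0.02) it did not pass (limma adjusted p = 0.74). Silent H2-Ea had a change of similar size, -0.20 (95% interval -0.45 to 0.05).

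Of 22 measured transcription factors, signalling genes and repressors that act on Ciita or class II promoters, 11 had changes above 0 and 11 below, with a median of 0.00. Irf2, which binds the interferon-responsive promoter of Ciita, read 5.38 to 5.86 in hemophagocytes and 5.85 to 6.07 in resting macrophages, a change of -0.33 (95% interval -0.56 to -0.10, limma adjusted p = 0.74). Irf4, a lymphoid and dendritic cell factor, had a change of -0.22 and the acetyltransferase Ep300 one of -0.13, and neither passed. None of these 22 exceeded the receptor probe sets' 95th percentile on any array.

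Peptide supply, the proteases and helpers that prepare antigen and trim the invariant chain, had the highest median change of the 5 lists, 0.19, with 9 of 12 genes above 0 and 0 called by limma. Ctsl, a cathepsin that can cut the invariant chain, read 6.00 to 6.27 in hemophagocytes and 5.37 to 6.17 in resting macrophages (change 0.40, 95% interval 0.07 to 0.74, limma adjusted p = 0.74). Lgmn, an asparagine-specific protease, reached 7.22 and 6.93 on hemophagocytes 3 and 5 and was 5.82 to 6.12 on the other 6 arrays (change 0.55, limma adjusted p = 0.74). Cst3, the cathepsin inhibitor cystatin C, stood at 9.27 on hemophagocyte 5, at 6.25 to 6.79 on the other hemophagocytes and at 5.99 to 6.30 on resting arrays. Ctss, the main protease of the invariant chain in antigen-presenting cells, was 8.89 and 8.41 on hemophagocytes 5 and 6, 7.49 and 7.55 on 2 and 3, and 8.74 on resting macrophage 5, with 7.21 to 7.53 on the other resting arrays. High values of Lgmn, Cst3 and Ctss thus sat on 1 to 3 arrays, hemophagocyte 5 among them each time.

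**Figure D3:**
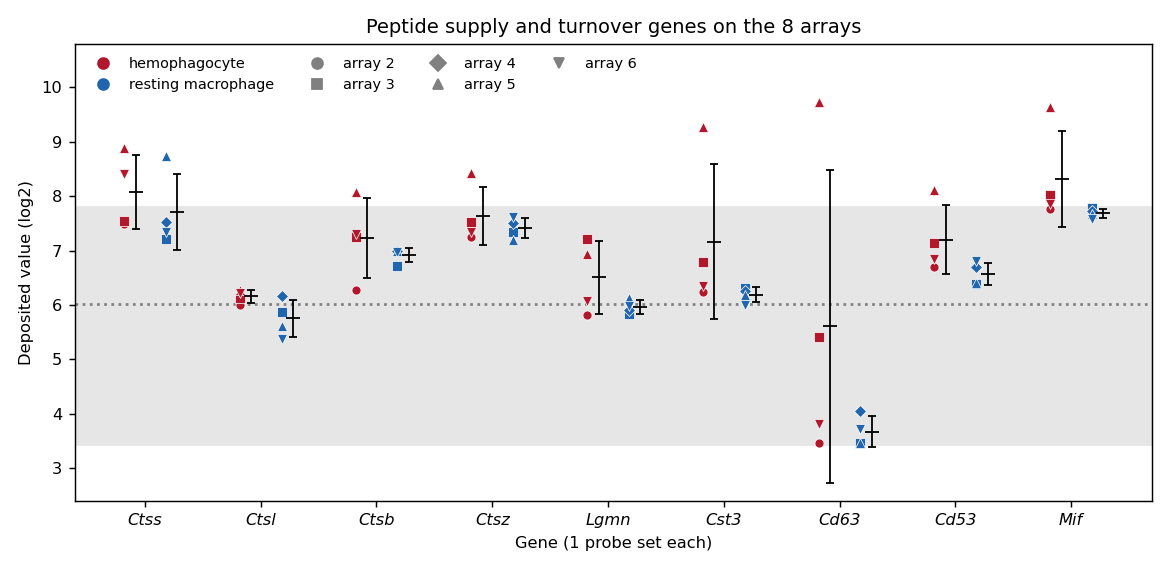
Deposited log2 values of 9 peptide supply and turnover genes on each of the 8 arrays, with group means ± SD (n = 4), marker shapes, dotted line and grey band as in the plot of class II values. They were picked after their values were seen, to show where single arrays stand apart, as hemophagocyte 5 does at 9.74 for Cd63.

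Genes of surface display and turnover split evenly, with 7 of 14 above 0 and a median of 0.00. Cd53, a leukocyte tetraspanin, reached 8.11 on hemophagocyte 5 and 7.15 on hemophagocyte 3, against 6.39 to 6.80 on resting arrays (change 0.63, limma adjusted p = 0.74). Mif, a cytokine that binds Cd74, was 9.64 on hemophagocyte 5 and 7.58 to 8.01 on all others. Cd63, a tetraspanin of late endosomes, was 9.74 on hemophagocyte 5, 5.41 on hemophagocyte 3, and 3.46 to 4.05 elsewhere. Marchf1, the ligase that marks class II for degradation, had a change of -0.14 (95% interval -0.36 to 0.08). On hemophagocyte 5 the median over the class II probe sets was 6.72, the highest among hemophagocytes (6.49 to 6.59 on the others) and inside the resting range of 6.55 to 6.91.

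Costimulators, which give T cells the second signal beside class II, had changes of -0.21 to 0.15, with 3 of 7 above 0 and 0 called. Cd80 read 7.16 to 7.41 in hemophagocytes and 7.45 to 7.64 in resting macrophages, without overlap (change -0.21, limma adjusted p = 0.74). Pdcd1lg2 had a change of -0.16 and Cd86 one of 0.10.

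Markers of the cells these samples could hold were set beside the class II values. Of 19 measured macrophage markers, 7 exceeded the receptor probe sets' 95th percentile on at least 1 array and 0 on all 8. An array had 0 to 6 of them above it in hemophagocytes and 0 to 3 in resting macrophages. The per-array mean of that list was 6.48 to 7.39 in hemophagocytes and 6.58 to 6.76 in resting macrophages. Of their changes 12 were above 0 and 7 below, from -0.40 for Lyz2 to 1.34 for Cd68. C1qc (change 1.11) and Mertk (0.17) had the smallest p among them and neither passed in limma. C1qc read 8.57 and 9.58 on hemophagocytes 3 and 5. It was 7.25 or lower on hemophagocytes 2 and 6, and 6.81 to 7.33 on resting arrays. The markers above the percentile were Cd68, Hmox1, Timd4, C1qa, C1qb, C1qc and Lyz2. Cd68, a lysosomal glycoprotein, reached 9.66 and 10.5 on hemophagocytes 3 and 5 and was 7.21 to 7.50 elsewhere. Lyz2, lysozyme, was 9.95 and 9.96 on those arrays and 8.71 to 8.89 on resting macrophages 3, 4 and 5, against 5.86 to 7.45 on the other 3 arrays. The lineage receptors did not exceed the percentile, with Csf1r at 6.06 to 6.48 over all arrays and Adgre1 at 5.53 to 5.89 except for 7.38 on hemophagocyte 5. The 7 of 19 are 36.8%, against 7.47% of all rows and 7.87% of receptor rows above the percentile on at least 1 array. Markers below it do not show that macrophage transcripts were absent. B cell markers, which matter because B cells carry class II constantly, averaged 6.36 to 6.55 and 6.48 to 6.64, with Cd72 (-0.26) and Vpreb3 (-0.28) lower without passing. Of the 14 B cell markers measured, 2 exceeded the 95th percentile, Vpreb3 and Ighm, each on all 8 arrays, while Cd79a and Ms4a1 did so on none. The 2 of 14 are 14.3%, against 1.77% of all rows and 2.76% of receptor rows above it on all 8 arrays. Receptor rows pass it too, so passing it does not by itself show expression of a marker. Dendritic cell markers averaged 6.76 to 6.84 and 6.78 to 6.87, with Flt3 at -0.16 and Siglech at -0.20. The change was below 0 for 10 of 13 and above 0 for 3. The largest in size was that of Bst2, 0.60, which read 9.23 on hemophagocyte 3. Of these 13 markers, Ccr7 exceeded the percentile on all 8 arrays and Bst2 on 1. T cell (6.18 to 6.27 and 6.23 to 6.28), plasma cell (6.12 to 6.34 and 6.26 to 6.36) and red cell markers (6.54 to 6.61 and 6.57 to 6.65) had list means that overlapped between the groups as well. Single markers whose groups did not overlap were Mertk (higher in hemophagocytes) and Cd72, Flt3 and Epb42 (lower). These were 1 of 19 macrophage, 1 of 14 B cell, 1 of 13 dendritic cell and 1 of 7 red cell markers. Over all rows, the groups did not overlap in 3.8%. Neutrophil markers averaged 6.05 to 6.61 and 6.03 to 6.13, with S100a8 at 8.02 and S100a9 at 9.12 on hemophagocyte 3. The change was below 0 for 6 of these 9 markers, and on hemophagocyte 3 Ly6g (5.25) and Retnlg (7.29) were at their lowest of the 8 arrays. The smallest p in the T cell list belonged to Cd28 (-0.31) and Trat1 (-0.09), in the plasma cell list to Irf4 and Xbp1 (0.13), and in the red cell list to Epb42 (-0.24) and Rhag (0.13). None of these markers passed, and their part in the class II values was not tested.

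**Figure D4:**
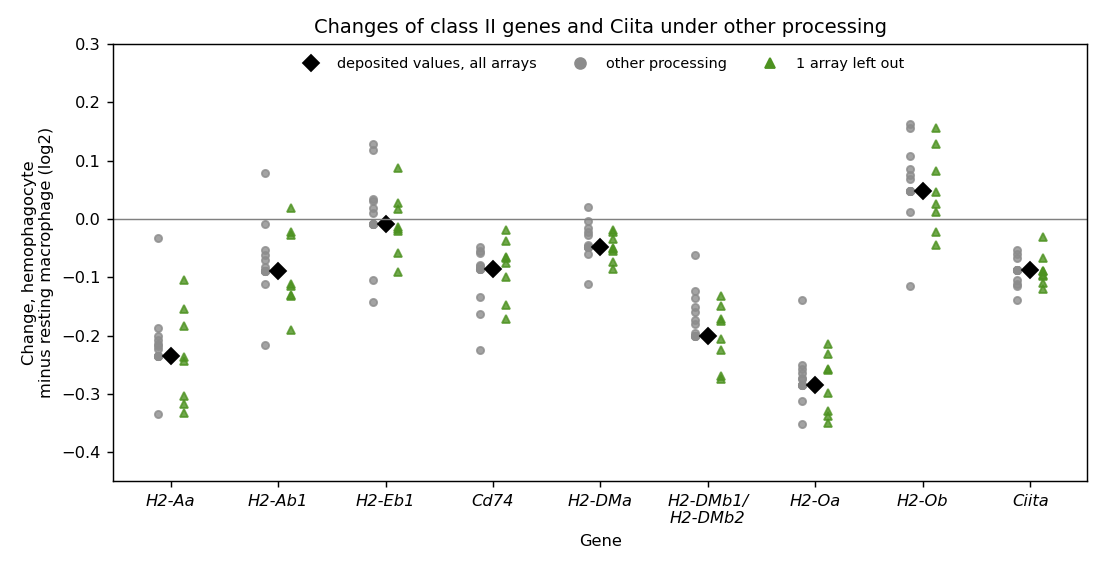
Log2 change of each class II probe set, hemophagocyte minus resting macrophage, with the deposited values and all 8 arrays (diamond), under the other ways of processing (circles) and with 1 array left out (triangles). H2-Aa, Cd74, H2-DMb1/H2-DMb2, H2-Oa and Ciita stay below 0 in every setting run, while H2-Ab1, H2-Eb1, H2-DMa and H2-Ob cross it.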

How the data were processed

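The deposited values are log2 values, 1 per probe set and array of the Affymetrix mouse Gene ST 1.0, as judged from their range; the authors used Affymetrix Expression Console 1.1, per the submitters' processing notes. For background correction, probe summary, normalization and build, nothing is given in the sources used here. Amplification used the WT-Ovation One-Direct kit, per the labels' protocols. Array medians were 6.10 to 6.17. Arrays have no read depth, so the 4 per group limit the precision.

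The annotation named 1 gene for 21797 probe sets (repeated symbols counted once), several for 1613 and none for 12146. Each distinct annotation was represented by its probe set of highest mean over the 8 arrays, giving 20736 rows. Class II genes kept a probe set naming several genes; the other lists used single-gene probe sets. Groups came from the sample titles. The test was lmFit and eBayes of limma 3.58.1 (R 4.3.3) without a block; p-values were adjusted by Benjamini-Hochberg over all rows, with a threshold of 0.05. The labels do not say that replicates are separate animals; a p-value here reflects only how these samples spread, which may be technical. The scripts were tested on simulated data.

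Members and lists were chosen with earlier results of these data known. All class II genes are named; from each pathway list up to 3 genes, those past the threshold or, failing that, of smallest p, and from each cell type list 2. Ctss, Marchf1, Csf1r, Ly6g, Retnlg, Adgre1, Cd79a, Ms4a1 and genes above the receptor probe sets were named after their values were seen. Alternatives were 3 normalizations, a filter on dim rows, an intensity trend with robust prior, array weights, averaged probe sets, other row sets, arrays left out, the replicate number as a block, and array background as a covariate.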

Additional observations from a re-analysis of the deposited data

Results flagged for a closer look

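A single array lay far from the other 3 of its group in 4 of 132 groups of class II and pathway genes, where chance alone flags about 1 in 20. For H2-Ab1 that array was hemophagocyte 2, which read 6.36 where the rest of its group read 6.75 to 6.81. Ctsb, a lysosomal cathepsin, was low on resting macrophage 3, with 6.72 against 6.98 to 7.00. Hemophagocyte 5 was high for Mif, with 9.64 against 7.76 to 8.01, and for the costimulator Cd40, with 7.45 against 7.36 to 7.37, a small gap in absolute terms.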

How the results depend on the processing

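In each of the 21 alternative settings, limma called 0 class II probe sets and 0 pathway genes. The median class II change was -0.14 to -0.03 over these settings, and -0.13 to -0.05 when single arrays were left out. H2-Aa, Cd74, H2-DMb1/H2-DMb2, H2-Oa and Ciita kept a negative change wherever they were tested; Cd74 was removed by the filter on dim rows, and H2-DMb1/H2-DMb2 by the restriction to single-gene probe sets. The sign turned for 4 genes, H2-Ab1, H2-Eb1, H2-DMa and H2-Ob, and the cause was not tested. H2-Eb1 was 0.0093 after quantile normalization, 0.018 after median centring, 0.031 after cyclic loess, 0.034 with array weights, 0.13 without hemophagocytes 3 and 5, 0.12 with array background as a covariate, and -0.092 to 0.087 with single arrays left out. H2-DMa was 0.020 with that covariate. H2-Ab1 was -0.19 to 0.019 and H2-Ob -0.045 to 0.16 with single arrays left out. With the replicate number as a block, H2-Ab1 stood at 0.079 and H2-Ob at -0.12, and 0 class II probe sets were called. Hemophagocyte 2 and resting macrophage 4 have no array of like number in the other group. The change in that fit therefore rests on the remaining arrays only. Numbers 3, 5 and 6 occur in both groups. Deviations from the group means correlated at 0.14, 0.05 and 0.12 within these pairs. Between arrays of unlike number they correlated at -0.24 to 0.23, a range that holds these values. The numbers were not taken as pairing the arrays. Over all rows the block moved the calls from 4 to 6. Calls over all rows numbered 1 to 14 across the settings, all higher, with 14 when hemophagocyte 2 was left out. No value of the 9 probe sets rose above the 95th percentile of the receptor probe sets, so low expression of these genes cannot be told from background here.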
